A study of Mus musculus with 80 samples.

Results

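The genes described here are 32 markers of endothelial cells, the cells that line blood and lymphatic vessels, out of 25899 genes measured in muscle stem cells (MuSCs). They were taken by symbol from known endothelial genes by a rule that uses no measured value, although earlier results of these data were known when the list was drawn up. MuSCs were sorted for GFP from extraocular muscles (EOM) and from the *Tibialis anterior* (TA) of *Tg:Pax7-nGFP* mice, in which the *Pax7* promoter drives a nuclear GFP, at 500 cells per library. Donors were 7.6 weeks old in Experiment 1 and 7 weeks old in Experiment 2 by the labels. Cells of both muscles of a donor were then injected into separate TA muscles of 1 *Rag2*-/-;*γC*-/- recipient, which lacks lymphocytes but has vessels of its own, after injury with cardiotoxin. GFP-positive cells were sorted again 21 days later by the labels, and the study's methods give a range that reaches past that day. Both graft groups therefore share the injured TA host, and a donor's grafts share 1 recipient. RNA was sequenced in 40 libraries, of which the 30 that pass the study's quality control were compared, 8 of EOM and 8 of TA before grafting (EOM and TA pre-graft libraries) and 7 EOM and 7 TA grafts.

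Endothelial cells are held together by junctional proteins such as VE-cadherin (*Cdh5*), PECAM1 and claudin 5. They respond to VEGF through receptors of the FLT and KDR family and to angiopoietins through TIE2 (*Tek*), with TIE1 as a partner of TIE2. SOX and ETS family transcription factors, among them SOX17, SOX18 and ERG, maintain the endothelial state. In muscle, the capillary endothelium takes up fatty acids with the help of GPIHBP1, CD36 and FABP4. The labelled cell type was first checked against its own markers. All 16 MuSC markers listed, *Pax7* among them, had reads in every pre-graft library, while 15 had reads in every EOM graft and 13 in every TA graft. A single read counts in this check. The summed level of these markers, in reads scaled to library size, had a median of 21958 in EOM and in TA before grafting. It was 5055 in EOM grafts and 3568 in TA grafts.

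Values are log2 of reads scaled to library size (RPM), and a gene without a read takes the lowest value of its library, between -1.67 and 0.48 in the libraries compared. Reads per gene were recovered from these values, and the 30 libraries hold 963432 to 4169357 reads on genes. Mitochondrial reads had a median of 3.56% in EOM and 10.7% in TA before grafting, and of 33% in EOM grafts and 25.4% in TA grafts. Of all genes tested, the median log2 change after grafting was -1.48 in EOM and -1.09 in TA, so the changes below are also set against that shift. Levels of a group given as 3 values are its lowest, median and highest library, and changes are given with their SE. Levels are not scaled to gene length, so they are compared between libraries and not between genes.

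Before grafting, most libraries held reads of most endothelial genes. In 4 libraries the genes were almost absent, *Tek*, *Eng* and *S1pr1* aside. The 4 libraries, picked out after their values were seen, were those of EOM mice 4, 5 and 6 and of TA mouse 3, all of Experiment 2. In these 4, 15 of the 32 genes had no read at all, among them *Kdr*, *Tie1*, *Cldn5*, *Emcn*, *Erg* and *Gpihbp1*. *Tek*, *Eng* and *S1pr1* aside, no gene exceeded 21 reads in any of the 4. In contrast, 20 of the 32 genes had a read in each of the other 5 EOM libraries, and 26 in each of the other 7 TA libraries. A single read counts here, and not all of these libraries held the whole set. EOM mouse 2 of Experiment 2 had no read of *Pecam1*, *Cdh5*, *Cldn5*, *Robo4* or *Sox7*. EOM mouse 3 of Experiment 1 had none of *Cdh5*, *Tie1* or *Vwf*, and 2 of *Kdr*. Summed over the 32 genes, the level was 227 to 3209 RPM in the 8 EOM libraries (median 728) and 50.9 to 8664 RPM in the 8 TA libraries (median 2204). The highest sums were those of TA mice 6, 2 and 1 of Experiment 2, at 8664, 8133 and 5549 RPM, and the lowest was that of TA mouse 3, at 50.9 RPM. These 3 TA libraries lay above every EOM library and TA mouse 3 below every one, and the other 4 TA libraries lay within the EOM range.

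A further EOM library, that of mouse 3 of Experiment 2, was left out by the study as an outlier of its group. It held 42103 reads of the 32 genes, a summed level of 18441 RPM, and reads of all 32 genes. *Fabp4* had 7488 reads there and at most 895 in the EOM libraries that were kept, and *Cdh5* had 605 reads against at most 70. The MuSC markers summed to 9890 RPM in this library and to 18747 RPM or more in each EOM library that was kept. The mural cell markers summed to 2634 RPM against at most 1339. The haematopoietic markers summed to 1555 RPM, below the 2538 RPM of EOM mouse 2 of Experiment 2, which was kept. The counts below are given with and without it where it changes them.

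**Figure D1:**
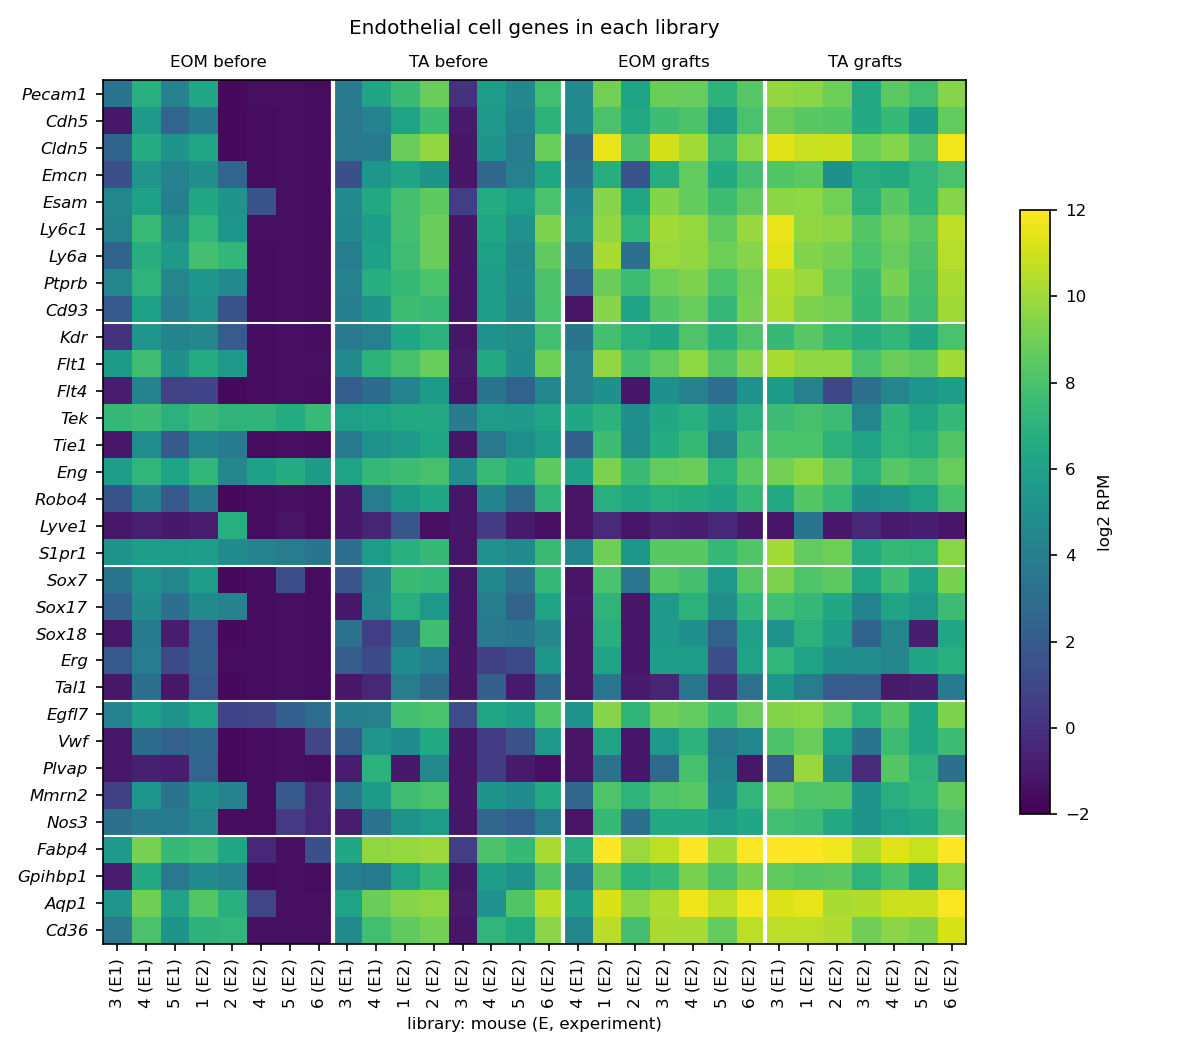
Level of each of the 32 endothelial genes (rows, grouped by role and separated by white lines) in each of the 30 libraries compared (columns, by group, mouse and experiment), as log2 RPM. Most rows are dark in the same 4 pre-graft libraries and bright in the grafts, whereas *Tek* and *Eng* have reads in every column.

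*Tek*, *Egfl7* and *Eng* were the 3 genes with reads in all 16 pre-graft libraries. *Tek* (TIE2; ENSMUSG00000006386, chromosome 4, 94739289 to 94874976, GRCm38) had 231 to 473 reads in EOM and 27 to 211 in TA libraries. Its lowest, median and highest log2 RPM were 6.60, 7.28 and 7.63 in EOM and 3.77, 6.02 and 6.51 in TA. Every EOM library lay above every TA library. In the 3 EOM libraries almost without other endothelial reads, *Tek* had 383, 231 and 473 reads, 61.1%, 42.7% and 70.2% of the summed level of the set. *Eng* (endoglin, a co-receptor for TGF-β family ligands; ENSMUSG00000026814, chromosome 2, 32646595 to 32682669) had log2 RPM of 4.46, 6.08 and 7.22 in EOM and 4.87, 7.41 and 8.49 in TA, and 172, 243, 132 and 58 reads in the 4 libraries. *S1pr1*, a receptor for sphingosine-1-phosphate, had 29 to 95 reads in all 8 EOM libraries, including 49, 37 and 29 in those 3, and no read in TA mouse 3. *Egfl7*, which encodes a secreted angiogenic factor, had 5, 11, 21 and 5 reads in the 4 libraries. In the same 4 libraries *Cdh5*, *Kdr* and *Cldn5* had at most 1 read.

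*Lyve1*, a hyaluronan receptor of lymphatic endothelium that some macrophages also carry, was the reverse case. It had reads in 2 of 8 EOM and 1 of 8 TA pre-graft libraries, in 0 of 7 EOM grafts and in 1 of 7 TA grafts. Of these, EOM mouse 2 of Experiment 2 held 330 reads, and no other library that was kept held more than 17. The summed level of 12 haematopoietic markers was 2538 RPM in that library and at most 101 RPM in the other 7 EOM libraries. Whether those cells account for the reads was not tested. *Lyve1* passed the filter on low values in none of the comparisons.

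Promoter windows from 250 bases before to 50 bases after the start were at hand from RefSeq (GRCm38.p6) for 15 of the 32 genes. Windows are shown for *Tek*, which had reads in every library, and for *Cldn5* and *Robo4*, whose reads followed the rest of the set. Capitals mark matches, on either strand, to short motifs of transcription factor families. For ETS factors CAGGAAG was searched, and in addition its variant with the letters CCGGAAG. The motif searched for GATA factors was AGATAA, and that for SOX factors was AACAAT. No matches overlap in these windows. *Tek* lies at chr4:94739039-94739338, *Cldn5* at chr16:18776597-18776896 and *Robo4* at chr9:37401722-37402021, all on the plus strand.
Tek: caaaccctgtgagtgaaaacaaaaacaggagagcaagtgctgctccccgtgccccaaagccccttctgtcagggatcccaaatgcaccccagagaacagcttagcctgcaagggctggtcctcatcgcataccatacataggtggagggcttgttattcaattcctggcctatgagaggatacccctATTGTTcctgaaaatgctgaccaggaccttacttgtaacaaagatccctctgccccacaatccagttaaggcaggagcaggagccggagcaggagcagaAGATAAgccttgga
Cldn5: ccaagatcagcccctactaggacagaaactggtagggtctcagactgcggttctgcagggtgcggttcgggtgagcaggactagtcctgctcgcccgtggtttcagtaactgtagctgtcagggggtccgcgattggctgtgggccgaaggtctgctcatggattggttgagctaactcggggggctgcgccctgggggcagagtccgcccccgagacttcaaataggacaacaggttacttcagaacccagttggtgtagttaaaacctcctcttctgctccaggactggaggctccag
Robo4: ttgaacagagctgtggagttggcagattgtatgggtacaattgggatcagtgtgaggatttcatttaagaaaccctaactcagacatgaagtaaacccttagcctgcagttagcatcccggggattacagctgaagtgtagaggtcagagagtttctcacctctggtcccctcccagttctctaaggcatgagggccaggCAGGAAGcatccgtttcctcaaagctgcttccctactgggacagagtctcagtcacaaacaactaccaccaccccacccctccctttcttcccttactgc
CAGGAAG occurred in 3 of the 15 windows (*Egfl7*, *Emcn* and *Robo4*) and in 13% of 27025 windows of the genome, 1 per gene. CCGGAAG occurred in 0 of 15 and in 9.12%, AGATAA in 2 of 15 (*Tek* and *Tal1*) and in 11.4%, and AACAAT in 3 of 15 (*Emcn*, *Tek* and *Cd36*) and in 10.9%. These are matches of letters and no test of binding.

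The comparison of TA with EOM before grafting asks whether MuSCs of the muscles differ in these genes. Of the 30 genes that passed the filter, 3 were called higher in TA (adjusted p under 0.05 and a log2 change beyond 1) and 1 lower, where 1.26% of all 13217 genes tested were called higher and 3.31% lower. *Cdh5* had log2 RPM of -1.67, -1.24 and 5.51 in EOM, with reads in 3 of 8 libraries, and of -0.99, 4.88 and 7.63 in TA, with reads in 8 of 8, a log2 difference of 4.09 ± 1.19 (SE; adjusted p = 0.0364, limma). The lymphatic VEGF receptor gene *Flt4* was higher by 3.17 ± 0.93 (adjusted p = 0.0383), and *Sox18*, from -1.67, -1.24 and 3.70 in EOM to -1.14, 3.43 and 7.73 in TA, by 3.48 ± 1.04 (adjusted p = 0.0409). For all 3 genes the groups overlapped. *Tek* was the gene called lower, with a difference of -1.45 ± 0.30 (adjusted p = 0.00322), with no overlap between the groups, which held for 1.81% of all genes tested in this direction.

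Among the other 26 genes the log2 difference lay between 0.07 (*S1pr1*) and 3.69 (*Pecam1*), all positive and none called. The median over all genes tested was -0.3. The 3 calls in TA changed with single libraries. They were 0 without any 1 of EOM mouse 3 of Experiment 1, EOM mice 2, 4, 5 and 6 and TA mice 1, 2, 4 and 6 of Experiment 2, and 5 without EOM mouse 4 of Experiment 1. With donor as replicate block, 21 genes were called higher in TA, where 266 of all 13069 genes tested were. This fit holds only the 7 donors with both libraries, and so leaves out TA mouse 3 of Experiment 2 and EOM mouse 5 of Experiment 1. The 21 calls thus do not show the effect of the block alone. In this fit *Cdh5* was at 5.18 ± 1.02 (adjusted p = 0.00552), *Fabp4* at 4.75 ± 0.94 and *Cldn5* at 4.92 ± 1.30. *Tek* was again lower (-1.19 ± 0.16, adjusted p = 0.000336). Without TA mouse 3 of Experiment 2, 17 were called, where 242 of all genes tested were called higher. With the EOM library that the study left out 0 were called (144 of all 13351 genes). Without the 4 libraries almost lacking these reads 0 were called (124 of all 12866 genes). *Tek* was called lower in each of those fits, and not in Experiment 2 alone or by DESeq2.

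After grafting, nearly all endothelial genes were higher in both muscles. The summed level was 591 to 20895 RPM in EOM grafts (median 13608), 18.7 times the median before grafting, and 6125 to 29799 RPM in TA grafts (median 15498), 7.03 times. The EOM graft of mouse 4 of Experiment 1 was the lowest, and the next was that of mouse 2 of Experiment 2, at 4013 RPM. Of the 31 genes tested, 27 were called higher in EOM grafts than in EOM before grafting and 27 in TA grafts than in TA before grafting, with 0 called lower in either. Of all genes tested, 3.51% were called higher and 55.8% lower in EOM, and 3.79% higher and 30.9% lower in TA. With each library centred on its median, 27 and 28 of the 31 were called higher, while all genes split into 871 higher and 634 lower in EOM and 1003 and 743 in TA. In bulk libraries, a smaller number of cells of a type and less RNA per cell cannot be told apart.

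**Figure D2:**
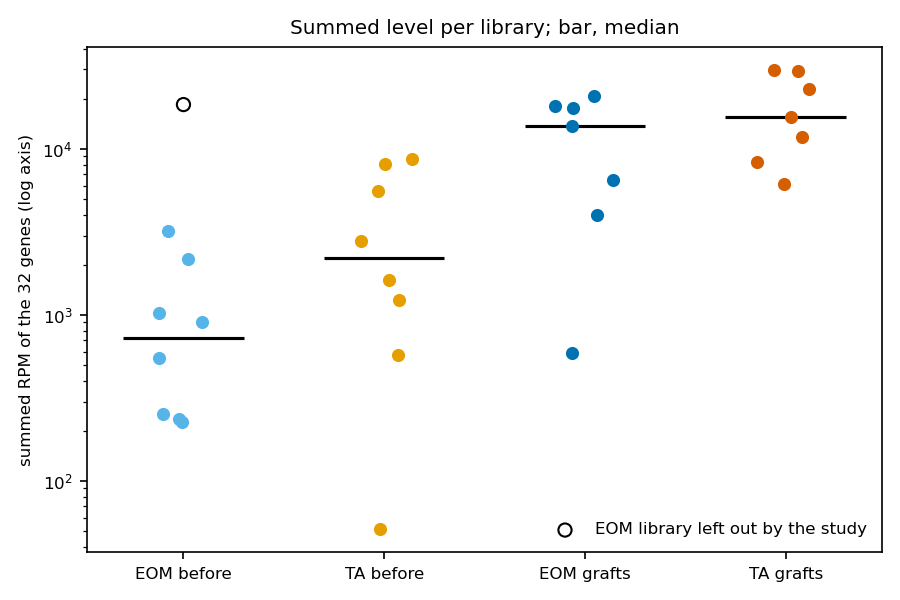
Summed level of the 32 genes in each library (RPM, log axis), with a bar at the median of each group. The open circle is the EOM library of mouse 3 of Experiment 2, left out by the study, at 18441 RPM, which lies above all 8 EOM libraries compared and within the range of the grafts.

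The groups seldom separated. Only *Fabp4* was higher in every TA graft than in every TA pre-graft library, and no endothelial gene separated EOM grafts from EOM before grafting. Such separation upwards held for 0.214% of all genes tested in TA and 0.176% in EOM. The TA pre-graft library of mouse 1 of Experiment 1, which did not pass the study's quality control, held *Fabp4* at 11.68. That is above the lowest TA graft at 10.38, so with this library *Fabp4* would overlap too. Its summed level was 11959 RPM, above all 8 TA pre-graft libraries compared. The pre-graft libraries here are also those of the comparison of TA with EOM. With donor as replicate block, 24 genes were called in EOM (6 donors) and 28 in TA (7 donors). Of all genes tested, 293 of 12722 in EOM and 480 of 12892 in TA were called higher in these fits. With the EOM library that the study left out, 22 were called in EOM (351 of all 13244 genes). Without the 3 EOM libraries almost lacking these reads, 18 were called (197 of all 12615 genes). The median log2 change over the 31 genes was 4.66 in the libraries compared, and 3.92 and 2.73 in those fits, and in TA it was 3.35. In Experiment 2 alone, 29 were called in EOM (474 of all 12496 genes) and 16 in TA (198 of all 12452 genes).

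All 9 genes for junction and surface proteins were called higher in grafts of both muscles. *Cldn5* (claudin 5, a seal of endothelial tight junctions; ENSMUSG00000041378, chromosome 16, 18776847 to 18778260) had log2 RPM of -1.67, 0.56 and 6.66 in EOM before grafting and 2.61, 9.62 and 11.55 in EOM grafts, an increase of 6.84 ± 1.43, adjusted p = 0.00117. In TA it went from -1.14, 4.54 and 9.71 to 8.25, 10.82 and 11.71, an increase of 4.88 ± 1.06, adjusted p = 0.00269. These were the largest changes of the 31 genes in each muscle. *Cdh5* reached 4.64, 7.67 and 8.09 in EOM grafts (6.37 ± 1.04, adjusted p = 0.000257) and 5.86, 8.29 and 8.85 in TA grafts (3.05 ± 0.84, adjusted p = 0.00971). *Pecam1*, an adhesion molecule of endothelial contacts, went from -1.67, 1.00 and 6.87 to 4.61, 8.39 and 9.03 in EOM and from 0.01, 5.94 and 8.78 to 6.47, 8.93 and 9.75 in TA. Its change was 5.70 ± 1.25 in EOM and 3.10 ± 0.85 in TA. Every graft of both muscles held reads of all 3 genes.

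*Esam*, a junctional adhesion molecule, rose by 4.67 ± 1.11 in EOM and 2.53 ± 0.79 in TA, to medians of 8.56 and 9.02. *Ptprb*, the phosphatase that acts on TIE2, rose by 5.08 ± 1.29 and 3.65 ± 0.90, to 8.79 and 9.16. The sialomucin gene *Emcn* rose by 4.16 ± 1.20 and 3.39 ± 0.85, and *Cd93*, a C-type lectin-like receptor, by 5.08 ± 1.43 and 3.71 ± 0.89. *Cd93* spanned -1.24 to 9.48 in EOM grafts, with no read in the graft of mouse 4 of Experiment 1, and 7.40 to 10.28 in TA grafts.

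*Ly6c1* and *Ly6a* encode related surface proteins of capillary endothelium, and *Ly6a* is also carried by fibro-adipogenic cells and induced by interferon. *Ly6c1* had log2 RPM of -1.56, 4.59 and 7.42 and 4.84, 9.72 and 10.06 in EOM before and after grafting (5.49 ± 1.30) and of -1.14, 6.10 and 9.26 and 8.25, 9.59 and 11.61 in TA (3.78 ± 0.97). *Ly6a* went from -1.56, 4.03 and 7.85 to 3.10, 9.45 and 10.24 in EOM (4.66 ± 1.54) and from -1.14, 5.98 and 8.81 to 8.01, 9.05 and 11.29 in TA (3.72 ± 0.95). They lie 47383 bases apart on chromosome 15 in a family of similar genes, so how their reads were divided between them is uncertain.

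**Figure D3:**
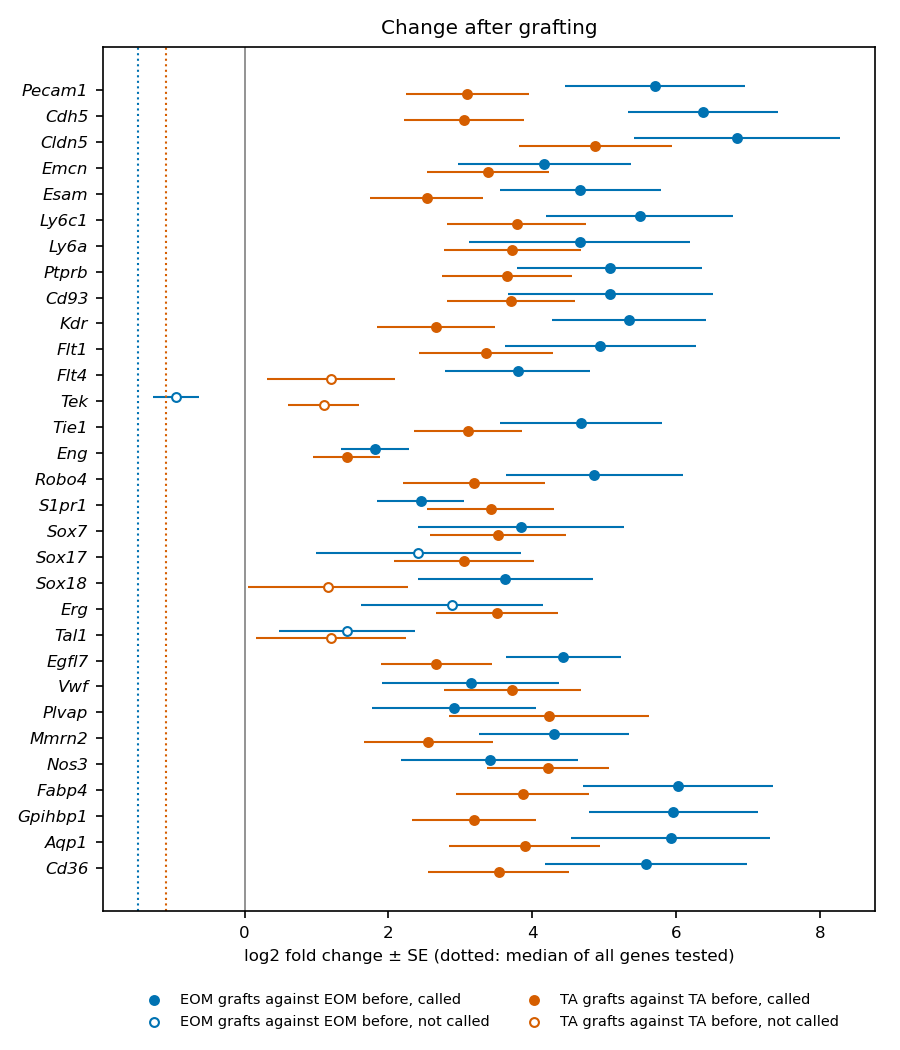
Log2 fold change of each of the 31 endothelial genes tested, grafts against pre-graft libraries, with SE, in EOM (blue) and TA (orange). Filled points passed the thresholds, open points did not, and the dotted lines mark the median of all genes tested, -1.48 in EOM and -1.09 in TA. All points but *Tek* in EOM lie above 0.

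Of the 9 receptor genes, 8 were tested, of which 7 were called higher in EOM grafts and 6 in TA grafts. *Flt1*, a VEGF receptor, went from -1.56, 5.31 and 7.70 to 4.08, 8.64 and 9.69 in EOM (4.94 ± 1.33, adjusted p = 0.0051) and from -0.99, 6.74 and 8.93 to 7.99, 9.65 and 10.21 in TA (3.35 ± 0.93, adjusted p = 0.0104). *Kdr*, the main signalling receptor for VEGF, went from -1.56, 1.07 and 5.31 to 3.37, 6.91 and 8.13 in EOM (5.34 ± 1.07, adjusted p = 0.00091) and from -1.14, 5.00 and 7.75 to 6.36, 7.39 and 8.38 in TA (2.66 ± 0.82, adjusted p = 0.0179). *Flt4* rose in EOM by 3.80 ± 1.00, from a median of -1.16 to 4.12, and in TA its change of 1.20 ± 0.89, adjusted p = 0.273 did not pass. *Tie1* rose by 4.68 ± 1.12 and 3.10 ± 0.75, to medians of 6.68 and 7.19. *Robo4*, an endothelial Roundabout receptor, rose by 4.86 ± 1.23 and 3.19 ± 0.98, to 6.69 and 6.54.

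*Eng* and *Tek*, with reads in every pre-graft library, had changes below the median of the set in both muscles. *Eng* had 6.01, 8.49 and 9.26 in EOM grafts and 7.00, 8.56 and 9.68 in TA grafts, an increase of 1.82 ± 0.47, adjusted p = 0.00436 and of 1.42 ± 0.47, adjusted p = 0.023. *S1pr1* went from 3.45, 4.94 and 5.78 to 4.34, 8.18 and 8.92 in EOM (2.45 ± 0.61, adjusted p = 0.00323) and from -1.14, 5.40 and 7.57 to 6.63, 8.65 and 10.07 in TA (3.42 ± 0.89, adjusted p = 0.00706). *Tek* was at 5.04, 6.41 and 7.07 in EOM grafts, a change of -0.95 ± 0.32, adjusted p = 0.0169, which missed the threshold on size, and at 4.41, 7.34 and 7.91 in TA grafts, a change of 1.10 ± 0.50, adjusted p = 0.0816. Relative to the median of each library, its change was 0.30 in EOM (adjusted p = 0.586) and 1.99 in TA (adjusted p = 0.00135). With donor as replicate block, *Tek* was called higher in TA grafts (1.15 ± 0.42, adjusted p = 0.0417). *Tek* was the only one of the 31 genes with a negative change in either muscle, and its sign in EOM turned with the scaling.

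Of the 5 transcription factors, 2 were called higher in EOM grafts and 3 in TA grafts, against 4 and 1 with edgeR. *Sox7* went from -1.67, 2.36 and 5.68 to -1.24, 7.88 and 8.36 in EOM (3.84 ± 1.43, adjusted p = 0.0259) and from -1.14, 4.40 and 7.56 to 6.09, 8.17 and 9.22 in TA (3.52 ± 0.94, adjusted p = 0.00845). *Sox17*, a factor of arterial endothelium, was higher in TA grafts (3.04 ± 0.97, adjusted p = 0.0206, median 6.39), and in EOM its change was 2.42 ± 1.43, adjusted p = 0.138. *Sox18* was higher in EOM grafts (3.62 ± 1.22, adjusted p = 0.0161, median 5.01), and in TA its change was 1.16 ± 1.11, adjusted p = 0.397. *Erg*, an ETS factor, was higher in TA grafts (3.51 ± 0.84, adjusted p = 0.0048), where it had reads in 7 of 7 libraries, and its change in EOM, with reads in 5 of 7, was 2.88 ± 1.27, adjusted p = 0.0528. *Tal1*, a factor shared by endothelial and blood cells, was low in all groups, at medians of -1.24 and -0.38 in EOM and 0.92 and 2.05 in TA. Its changes of 1.43 ± 0.95 and 1.20 ± 1.04 were not called.

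All 5 genes for secreted and diaphragm proteins and nitric oxide synthase were called higher in both muscles, against 5 in EOM and 3 in TA with edgeR. *Egfl7* went from 0.81, 3.57 and 6.13 to 5.12, 8.63 and 9.43 in EOM (4.43 ± 0.80, adjusted p = 0.000479) and from 1.33, 6.07 and 8.14 to 6.37, 8.66 and 9.49 in TA (2.67 ± 0.77, adjusted p = 0.0128). *Vwf* (von Willebrand factor, which binds platelets) went from -1.67, -0.08 and 2.96 to -1.24, 4.53 and 6.98 in EOM (3.14 ± 1.22, adjusted p = 0.0322) and from -1.14, 3.46 and 6.50 to 3.41, 7.58 and 8.82 in TA (3.72 ± 0.95, adjusted p = 0.00676). The matrix protein gene *Mmrn2* rose by 4.30 ± 1.04 and 2.56 ± 0.89, and *Nos3*, the endothelial nitric oxide synthase, by 3.40 ± 1.23 and 4.22 ± 0.85. *Plvap*, a protein of the diaphragms of fenestrated endothelium, varied widely between single libraries, with 0 to 425 reads in EOM grafts and 1 to 1461 in TA grafts. Its highest level was in TA mouse 1 of Experiment 2, and its changes were 2.91 ± 1.14, adjusted p = 0.0331 and 4.23 ± 1.39, adjusted p = 0.0234.

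All 4 genes of lipid and water transport were called higher in both muscles. *Fabp4* (ENSMUSG00000062515, chromosome 3, 10204347 to 10208576), a fatty acid carrier of capillary endothelium and adipocytes, went from -1.40, 5.91 and 9.18 to 6.74, 10.64 and 12.12 in EOM (6.02 ± 1.31, adjusted p = 0.00153) and from 0.60, 8.88 and 10.22 to 10.38, 11.70 and 12.58 in TA (3.87 ± 0.92, adjusted p = 0.00472). *Aqp1*, a water channel, went from -1.41, 5.75 and 8.96 to 5.81, 10.59 and 11.77 in EOM (5.92 ± 1.39, adjusted p = 0.00231) and from -0.99, 8.52 and 10.56 to 10.23, 10.96 and 11.93 in TA (3.89 ± 1.05, adjusted p = 0.00878). *Gpihbp1*, which carries lipoprotein lipase to the capillary lumen, rose by 5.96 ± 1.18 and 3.19 ± 0.86, to medians of 8.08 and 8.39. The fatty acid translocase gene *Cd36* rose by 5.58 ± 1.40 and 3.53 ± 0.98, to 10.19 and 10.34.

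TA and EOM grafts, which lie in the same kind of host muscle, were compared directly. All 31 genes tested had a higher mean in TA grafts, with a median log2 difference of 1.13, against 0.09 over all genes tested. The genes moved together across the grafts, so their shared sign is not 31 separate results. Of the 31, 0 were called in either direction, as were 0% of all 12377 genes tested in limma. Of all genes, 452 had an unadjusted p under 0.05, and DESeq2 called 2 higher and 1 lower, none of them among the 32. The difference was positive for 28 of 31 genes with donor as replicate block and with edgeR. The smallest p among the 31 was that of *Vwf*, at -1.24, 4.53 and 6.98 in EOM and 3.41, 7.58 and 8.82 in TA grafts, a difference of 3.31 ± 1.00 (adjusted p = 1). *Cdh5* differed by 0.77 ± 0.57, *Fabp4* by 1.16 ± 0.63 and *Tek* by 0.61 ± 0.55. Without the EOM graft of mouse 4 of Experiment 1, the median difference was 0.54. With donor as replicate block (6 donors) it was 0.30, as in Experiment 2 alone. Both fits use the same 12 libraries, all of Experiment 2, and so lack that graft too.

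The graft change of EOM minus that of TA was tested in 1 fit over 30 libraries. The difference was positive for 24 of 31 genes, with a median of 1.59, against -0.31 over all genes tested. Of the 31, 0 were called, where 0.0554% of all 14428 genes were called higher and 0.152% lower. *Cdh5* had a difference of 3.32 ± 1.42 (adjusted p = 0.625) and *Tek* of -2.05 ± 0.61 (adjusted p = 0.266). With donor as replicate block, over the 5 donors with all 4 libraries, 3 genes were called higher, where 7 of all 13674 genes tested were. They were *Cdh5* (6.12 ± 1.06), *Kdr* (5.87 ± 1.09) and *Egfl7* (4.52 ± 0.82), each at an adjusted p of 0.0445. All 5 donors are of Experiment 2. The fit thus keeps the pre-graft libraries of EOM mice 4, 5 and 6, almost without endothelial reads, and leaves out that of TA mouse 3. The 3 calls therefore do not show the effect of the block alone. In this fit the median difference was 4.52, with 29 of 31 positive, and it was 3.88 in Experiment 2 alone. Without the 4 pre-graft libraries almost lacking endothelial reads it was 0.30, and with the EOM library that the study left out 0.80.

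Across libraries the genes moved together. In the 16 pre-graft libraries, Spearman's correlation of each gene with the summed level of the other 31 had a median of 0.92, and 29 of the 32 reached 0.8. The exceptions were *Tek* (-0.04), *Lyve1* (-0.03) and *Plvap* (0.31). In the 14 grafts the median was 0.88, 25 genes reached 0.8, and those under 0.5 were *Plvap* (0.34) and *Lyve1* (0.31). *Tek* reached 0.80 in the grafts. Within the 8 EOM pre-graft libraries *Eng* had 0.33 and *Tek* 0.38, and within the 8 TA libraries 0.98 and 0.83, where TA mouse 3 was low in all. These correlations describe libraries that share their scaling.

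The share of single genes in the summed level was taken next. In the 12 pre-graft libraries with at least 1000 reads of the set, *Fabp4* made up a median of 14.2% of it (7.40% to 29.8%), against 21.3% (11.7% to 23.7%) in the 14 grafts. *Aqp1* made up 12.3% (2.12% to 24.1%) and 14.7% (7.77% to 23.9%), and *Cdh5* 1.3% and 1.5%. *Tek* differed, with 4.99% (0.909% to 30.4%) before grafting and 0.698% (0.348% to 14.4%) in grafts. The highest share of *Tek* among the grafts was that of EOM mouse 4 of Experiment 1, whose MuSC marker sum of 18075 RPM was also the highest of the grafts.

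**Figure D4:**
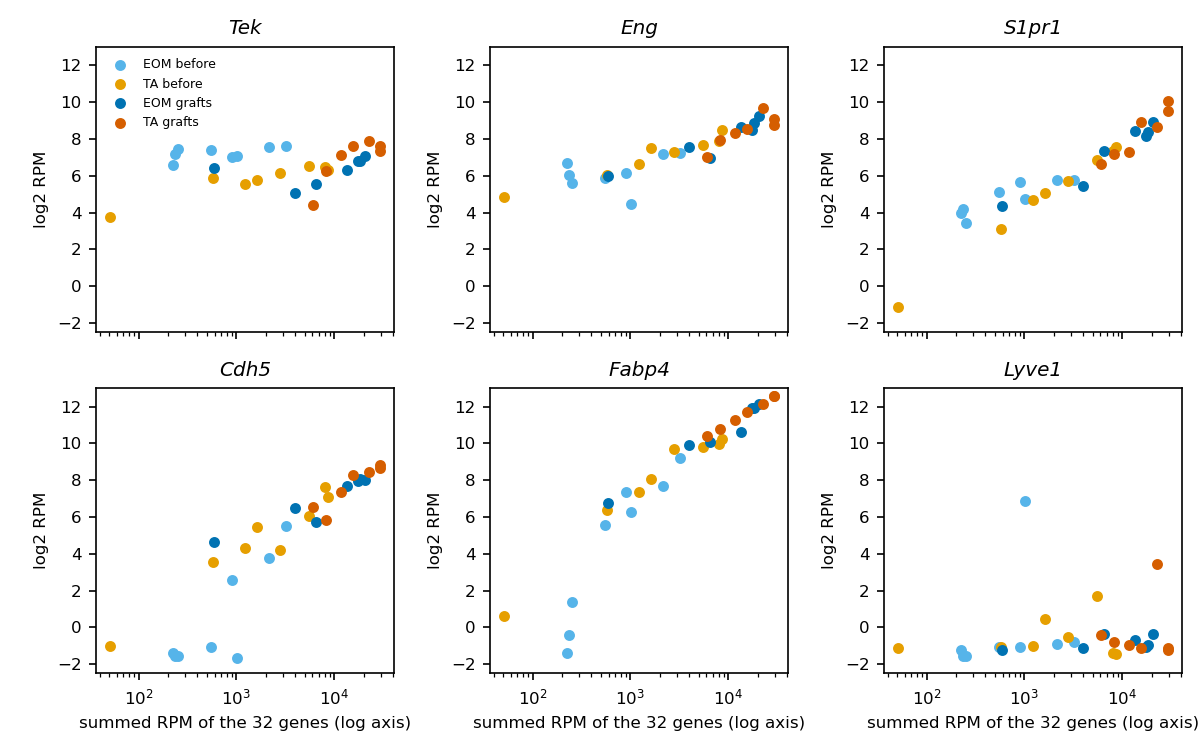
Level of 6 of the genes (log2 RPM) against the summed level of all 32 genes (RPM, log axis), 1 point per library, coloured by group. *Cdh5* and *Fabp4* follow the sum, which includes them, *Tek* is flat among the EOM pre-graft libraries, and *Lyve1* stays near its floor except in 3 libraries.

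Grafts were sorted at far fewer cells than the pre-graft libraries by the labels (median 35 in EOM and 26 in TA, and 9 in the smallest), so the relation of these genes to cell number was tested among the 14 grafts with muscle as covariate. The pre-graft libraries all hold 500 cells and could not be used. Of 31 genes, 30 had a lower level at higher cell number, with a median slope of -0.86 log2 per doubling of the cell number. The median slope over all genes tested was 0.42. Of the 31 genes, which moved together, 4 were called lower, where 0.364% of all 12377 genes were called lower and 5.58% higher. They were *Sox7* (-1.39 ± 0.42, adjusted p = 0.0375), *Cd93* (-1.33 ± 0.43, 0.0486), *Cldn5* (-1.27 ± 0.36, 0.0293) and *Ptprb* (-1.03 ± 0.31, 0.0358). *Fabp4* had a slope of -0.73 ± 0.28 and *Tek* of 0.04 ± 0.26, neither called. The 16 MuSC markers had a median slope of 1.51, and 11 of them were called higher.

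The calls changed with single libraries. The EOM graft of mouse 4 of Experiment 1 held the most cells and the lowest endothelial sum, 591 RPM. Without it 0 endothelial genes were called and the median slope was -0.35. The count was also 0 without the EOM grafts of mice 3 or 4 or the TA graft of mouse 5 of Experiment 2. It was 2 without the TA graft of mouse 3 of Experiment 1, 8 without the EOM graft of mouse 1 and 11 without the TA graft of mouse 3 of Experiment 2. Of all genes tested, 36, 73 and 86 were called lower in these 3 fits. With donor as replicate block (6 donors), the median slope was -0.13, *Sox7* and *Cd93* had slopes of 0.16 and 0.03, and 0 were called. In Experiment 2 alone 0 were called too, with a median slope of -0.30. These fits are not separate checks, since both use the same 12 libraries, all of Experiment 2. Both therefore also leave out the EOM graft of mouse 4 of Experiment 1. The study's table gives other cell numbers than the labels for 3 of the grafts compared. With them 5 genes were called lower, where 58 of all 12377 genes tested were. After centring each library on its median, 19 were called lower (135 of all 12377 genes).

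**Figure D5:**
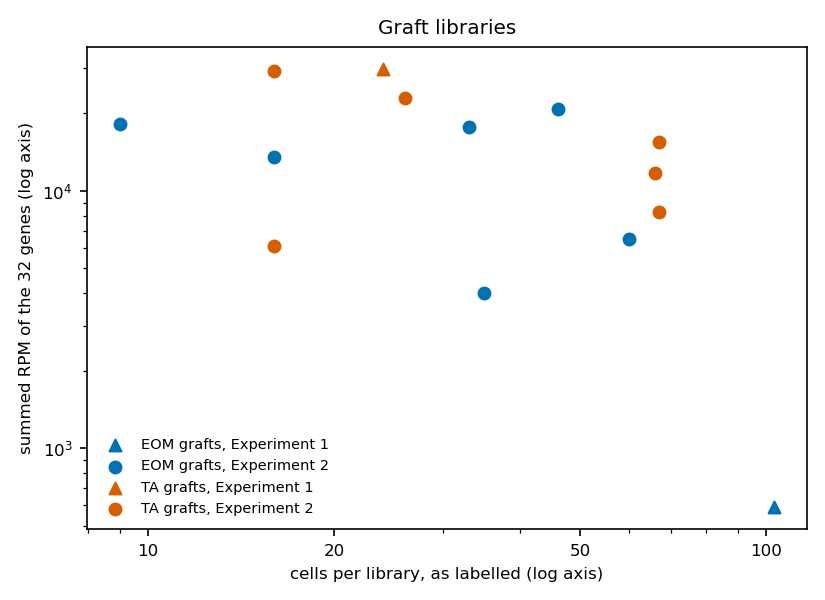
Summed level of the 32 genes (RPM, log axis) against the labelled number of cells (log axis) in the 14 grafts, by muscle of origin (colour) and experiment (triangles, Experiment 1; circles, Experiment 2). The lowest point, at 591 RPM, is the EOM graft of mouse 4 of Experiment 1, which is also the one with the most cells.

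Further endothelial genes, a list of which 29 are in the table and none is among the 32, moved less uniformly. In EOM grafts 9 of 25 tested were called higher and 6 lower, and in TA grafts 12 of 28 higher and 3 lower. Over all genes tested, 3.51% were higher and 55.8% lower in EOM, and 3.79% and 30.9% in TA. The median log2 change of all genes tested was -1.48 in EOM and -1.09 in TA. *Lmo2*, an adaptor of blood and endothelial transcription factors, fell by 3.02 ± 0.42 in EOM grafts and by 1.66 ± 0.52 in TA grafts. *Cd34*, a sialomucin that MuSCs also carry, fell by 1.86 ± 0.28 in EOM, and its change in TA was 0.22 ± 0.39 and not called. *Tm4sf1*, a membrane protein of endothelial cells, rose by 4.28 ± 0.83 in EOM and 5.02 ± 1.11 in TA. The thrombomodulin gene *Thbd* rose by 2.56 ± 0.55 in EOM and 1.60 ± 0.39 in TA. *Prox1*, a factor of lymphatic endothelium, fell by 2.21 ± 0.50 in EOM and 2.68 ± 0.50 in TA. Among grafts its slope on cell number was 1.04 ± 0.30 and called higher, as were those of 11 of the 16 MuSC markers. Which cells its reads come from was not tested. Centred on library medians, 10 were called higher and 1 lower in EOM grafts, and 14 and 2 in TA grafts. Before grafting, 1 of 26 was higher in TA and 4 lower, where 1.26% and 3.31% of all genes tested were. Of ligands and co-receptors of VEGF and angiopoietin signalling, 2 of 13 tested were called higher in each graft comparison, the co-receptor genes *Nrp1* and *Nrp2*, and 4 lower in EOM and 1 in TA. *Nrp1* rose by 3.54 ± 0.77 in EOM and 1.94 ± 0.55 in TA, and *Slit2*, a ligand of Roundabout receptors, fell by 3.10 ± 0.70 in EOM, and its change in TA was 2.24 ± 0.90 (adjusted p = 0.0544). *Vegfa*, the main VEGF ligand, fell by 1.85 ± 0.46 in EOM and 2.81 ± 0.61 in TA. After centring, 4 were called higher and 0 lower in EOM, and 5 higher and 1 lower in TA.

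Markers of other cells were counted beside the set. For comparison with these counts, 3.51% of all genes tested were called higher and 55.8% lower in EOM grafts. In TA grafts 3.79% were called higher and 30.9% lower. After centring, 871 of all 13094 genes were called higher and 634 lower in EOM, and 1003 and 743 of all 13076 genes in TA. Of 12 mural cell markers (pericytes and vascular smooth muscle), 3 were called higher and 3 lower in EOM grafts, and 5 higher and 0 lower in TA grafts, with 0 lower in either after centring. Their summed level was 1013 to 1339 RPM in EOM and 709 to 2268 in TA before grafting, and 550 to 5481 and 804 to 7209 in grafts. *Myh11*, the smooth muscle myosin heavy chain, rose by 4.76 ± 0.63 in EOM, and its change in TA was 2.48 ± 1.30 (adjusted p = 0.129). The smooth muscle actin gene *Acta2* fell by 2.05 ± 0.40 in EOM, and its change in TA was -0.92 ± 0.68 (adjusted p = 0.273). The median change of all genes tested was -1.48 in EOM and -1.09 in TA. *Rgs5*, a pericyte marker, rose by 3.70 ± 1.21 in EOM and 3.14 ± 0.65 in TA. Over the 16 pre-graft libraries the mural sum had a Spearman correlation of 0.84 with the endothelial sum, and of 0.88 over the 14 grafts. Of the MuSC markers, 15 of 16 were called lower in EOM grafts and 16 of 16 in TA grafts (6 and 15 after centring), with sums of 18747 to 23489 RPM in EOM and 15230 to 28469 in TA before grafting, against 1525 to 18075 and 399 to 11868 in grafts. Their correlation with the endothelial sum was -0.39 before grafting and -0.42 in grafts. The endothelial sum used here leaves out *Ly6a*, *Ly6c1*, *Cd36*, *Aqp1* and *S1pr1*, which other cells also express. The part of other cells in these changes was not tested.

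Haematopoietic markers, 13 on the list and 12 in the table, summed to medians of 41.2 and 27.1 RPM in EOM and TA before grafting and 40.3 and 42.3 RPM in grafts, and of 7 tested in EOM grafts 0 were called higher and 1 lower, and of 3 in TA grafts 1 higher. Of 12 fibro-adipogenic markers, 1 was called higher and 4 lower in EOM grafts, and 6 higher and 2 lower of 11 in TA grafts. After centring, 1 was higher and 0 lower in EOM, and 7 higher and 1 lower in TA. Of 3 erythroid genes tested, 1 was called higher in EOM grafts and 0 in TA grafts, and the median of their sum was 0.942 RPM in EOM and 0.819 RPM in TA before grafting, 2342 RPM in EOM grafts and 5.05 RPM in TA grafts. It reached 2322 and 4886 RPM in single libraries of EOM and TA before grafting, and the part of these cells was not tested. Of 17 interferon-induced genes tested, 11 were called higher and 1 lower in EOM grafts, and 13 higher in TA grafts. Their sum had a correlation of 0.76 with the endothelial sum in grafts and of 0.27 before grafting.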

How the data were processed

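RNA of sorted *Tg:Pax7-nGFP* MuSCs was sequenced in 40 libraries, of which the 30 passing the study's quality control were compared. The 40 bisulfite libraries of the series were not analysed here. The authors trimmed reads (Trim Galore 0.4.4), aligned them to GRCm38 (HISAT2 2.1.0) and deposited log2 reads scaled to library size (log2 RPM) per gene from Seqmonk. The annotation release and the counting step are not given in the sources used here. Library totals (a count of reads) and percent of reads in mitochondrial genes come from the table that the authors gave with the libraries. Genes without a read carry a value of 0.9 of a read, so reads could be recovered, and 99.999% of values lay within 0.1 read of a whole number.

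Libraries were tested with limma 3.58.1 (R 4.3.3) on the log2 values, with a trended prior variance, two-sided, over genes above a log2 RPM of 1 in at least 4 libraries compared, with Benjamini-Hochberg adjustment over all genes tested. A gene was called at an adjusted p under 0.05 and a log2 change beyond 1. Of the endothelial genes 30 or 31 passed this filter, in part through the group in which they were high. The 32 genes and the other lists were chosen with earlier results of these data known. Every member is accounted for. Members called in at least 1 comparison are given with their change and SE, and some of them also with levels or adjusted p. The lowest, median and highest levels are given for the member of each of 5 roles with the highest mean level. Of the other lists, changes are given for 2 to 4 genes with the smallest p in a comparison, with their values in the other muscle. To these *Prox1* and *Rgs5* were added in EOM after their values were seen. Role groups were described by their counts and medians, and correlations are Spearman's, without a p.

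Alternatives were log2 of RPM plus 1, no filter, a stricter filter (log2 RPM above 2 in 7 libraries), donor as replicate block, experiment as covariate, Experiment 2 alone, all libraries, scaling without mitochondrial genes, centring on library medians, the cell numbers of the study, and edgeR 4.0.16 and DESeq2 1.42.0 on recovered reads. Leaving out each library, adding the EOM library that the study left out and omitting the 4 libraries almost lacking endothelial reads were chosen after the data were seen. Deviations of the same donor from group means correlated at -0.08 to 0.18 between EOM and TA before grafting (7 pairs), -0.12 to 0.09 between grafts (6 pairs), -0.22 to 0.10 between EOM before and after grafting (6 pairs) and -0.08 to 0.12 in TA (7 pairs), and the pairing itself comes from the labels, which give the donor. No pair of libraries held identical values. The scripts were tested on simulated data.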

Additional observations from a re-analysis of the deposited data

Results flagged for a closer look

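For each gene, and for the median over the genes, 132 groups of libraries were searched for a highest or lowest library far from its group by Dixon's test, which chance passes in about 1 group of 20, and 25 passed. Of these, those of 12 genes and that of the median came from the TA library of mouse 3 of Experiment 2 before grafting, the lowest of its group. Its log2 RPM was -0.99 for *Cdh5*, *Flt1* and *Aqp1*, -1.14, its level without a read, for *Kdr*, *Tie1*, *Ly6c1*, *Ptprb*, *Cd93*, *Gpihbp1* and *Cd36*, 0.60 for *Fabp4* and 3.77 for *Tek*, and its median over the 32 genes was -1.14.

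The EOM graft of mouse 4 of Experiment 1 passed the test as the lowest of its group for 7 genes. Its log2 RPM was 3.37 for *Kdr*, 4.08 for *Flt1*, 6.74 for *Fabp4*, -1.24 for *Robo4* and *Cd93*, 2.37 for *Ptprb* and 5.81 for *Aqp1*. It was also the lowest EOM graft for genes that did not pass, among them *Cdh5* (4.64) and *Cldn5* (2.61). The EOM graft of mouse 2 of Experiment 2 passed as the lowest for *Flt4*, at -1.14. Before grafting, single EOM libraries were highest for *Flt4* (4.24), *Plvap* (2.58) and *Lyve1* (6.85), and among TA grafts that of mouse 1 of Experiment 2 was highest for *Lyve1* (3.42). Outside the libraries compared, the EOM library of mouse 3 of Experiment 2, left out by the study, held a summed level of 18441 RPM, above all 8 EOM libraries compared. What set these libraries apart was not tested.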

How the results depend on the processing

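Before grafting, 3 genes were called higher in TA. With donor as replicate block this count was 21 (266 of all 13069 genes tested), in a fit that also leaves out TA mouse 3 of Experiment 2. It was 1 without a filter (153 of 25899 genes), 1 with edgeR (247 of 13217) and 1 with DESeq2 (323 of 13217). It was 0 with the EOM library that the study left out, 0 without the 4 libraries almost lacking endothelial reads, and 0 to 17 as each library was left out. The 1 gene lower, *Tek*, was 0 genes in Experiment 2 alone and 0 with DESeq2. In TA grafts 27 genes were called higher, and 16 in Experiment 2 alone (198 of all 12452 genes tested). In EOM grafts 0 were lower, and 1 (*Tek*, -1.28) with all libraries, with 0 to 1 as each library was left out (1 without the EOM library of mouse 5 before grafting or the EOM grafts of mice 1, 4 or 6, all of Experiment 2). The difference between the graft changes called 0, and 3 with donor as replicate block, in a fit that holds donors of Experiment 2 only. The block moved no other count by over 1.5 times but that of the slope.

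The slope on cell number called 4 lower. This was 0 with the replicate block and in Experiment 2 alone, which use the same 12 libraries. It was also 0 with experiment as covariate, with all libraries and with edgeR. The count was 12 when scaled without mitochondrial genes (83 of all 12377 genes tested) and 19 when centred on library medians (135 of 12377). It was 0 to 11 as each library was left out. Among the genes called or named in a comparison, signs turned for *S1pr1* before grafting (-0.60 with all libraries, -0.30 with the EOM library left out by the study), for *Tek* in EOM grafts (0.11 without mitochondrial genes, 0.30 centred, 0.36 with edgeR, 0.49 with DESeq2), for the slopes of *Sox7* (0.16) and *Cd93* (0.03) under the block, and for that of *Tek* (-0.29, -0.38, -0.36 and -0.40 in the same 4 settings as in EOM grafts). Over all 31 genes, the slope was positive for 1, and for 9 under the block. The cause of these changes was not tested. Of single-gene values, 19 of 388 before grafting, 22 of 372 in TA grafts, 27 of 400 in EOM grafts and 28 of 72 slopes kept their direction but no longer passed. Only genes called in the main fit could lose a call, and the totals also count genes not called there. These shares therefore understate how often a call was lost, most of all before grafting, where few genes were called. Gene levels near 1 read limit *Tal1*, *Lyve1*, *Plvap* and *Erg*, and before grafting in EOM also *Cdh5*, *Sox18* and *Flt4*, without a read in 5, 5 and 4 of 8 libraries, and graft libraries of few cells limit all.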
